A study of Mus musculus with 6 samples.

Results

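Natural killer (NK) cells of the small intestinal lamina propria that carried RNA of S1pr5, Cma1 or Serpinb9b were described here, 97 cells in all. They were chosen from the gene counts themselves, so the counts of the choosing genes are not results. A kept cell counted as an NK cell when Eomes, Klra4, Klra8 and Klra9 together had at least 2 unique molecular identifiers (UMIs, each standing for 1 captured RNA molecule), Cd3e and Cd3d together fewer than 2, and Jchain fewer than 50. An NK cell counted as mature when S1pr5, Cma1 and Serpinb9b together, called the maturity sum below, had at least 2 UMIs. This gave 44 mature cells among 421 NK cells of 5122 kept cells in the wild-type library (WT_LP) and 53 among 337 NK cells of 3455 in the KO library (KO_LP). The other NK cells, 377 and 284 with a maturity sum of 0 or 1, are called lower-sum cells and are the comparison throughout.

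The series compared C57BL/6J mice aged 8 weeks that were wild type with mice labelled zfp683 flox/flox; Ncr1-Cre, which the labels call Hobit KO. Ncr1-Cre deletes a floxed gene in cells that express NKp46, so other cells of these mice keep Zfp683, and which exons lie between the loxP sites is not given. Lymphocytes of 3 tissues were profiled on the Chromium 3′ platform of 10x Genomics, with 1 library per genotype and tissue, and gene counts of the 2 lamina propria libraries were used. The labels name type 1 innate lymphoid cells (ILC1) and NK cells, but give neither a sort gate nor the number of animals. With 1 library per genotype no difference has a replicate check, so there are no p-values, and every interval below is a 95% interval that covers counting error only.

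Mouse NK cells mature through stages that lose CD27 and gain CD11b (encoded by Itgam) and KLRG1, a sequence driven by the T-box factors Eomes and T-bet and, at its end, by the repressor Zeb2. S1pr5 encodes a sphingosine-1-phosphate receptor through which mature NK cells leave bone marrow and lymph nodes towards blood. Cma1 encodes a chymase, a chymotrypsin-like serine protease best known from mast cell granules, and Serpinb9b encodes a serpin related to the granzyme B inhibitor Serpinb9. Hobit, encoded by Zfp683, is a transcription factor of tissue-resident lymphocytes.

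The sequences just upstream of the 3 choosing genes are shown because they define the cells, and that of Gzmb because it lies at the other end of the same protease cluster as Cma1 and was high in the cells. Each is the 250 bases before the transcription start in the RefSeq table for GRCm38.p6, read 5′ to 3′ on the strand of the gene: chr14:55944676-55944925 (minus strand) for Cma1, chr9:21248444-21248693 (minus) for S1pr5, chr13:33027164-33027413 (plus) for Serpinb9b and chr14:56262335-56262584 (minus) for Gzmb. Capitals mark matches to the RUNX core TGTGGT.
Cma1: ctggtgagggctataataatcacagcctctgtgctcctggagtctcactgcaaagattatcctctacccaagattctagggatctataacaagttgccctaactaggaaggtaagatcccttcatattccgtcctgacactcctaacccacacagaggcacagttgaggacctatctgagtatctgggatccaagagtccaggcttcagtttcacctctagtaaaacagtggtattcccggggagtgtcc
S1pr5: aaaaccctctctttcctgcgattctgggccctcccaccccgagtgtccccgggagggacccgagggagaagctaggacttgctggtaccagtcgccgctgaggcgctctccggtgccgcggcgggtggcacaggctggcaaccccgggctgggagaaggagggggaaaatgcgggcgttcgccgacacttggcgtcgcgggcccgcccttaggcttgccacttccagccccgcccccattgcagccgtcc
Serpinb9b: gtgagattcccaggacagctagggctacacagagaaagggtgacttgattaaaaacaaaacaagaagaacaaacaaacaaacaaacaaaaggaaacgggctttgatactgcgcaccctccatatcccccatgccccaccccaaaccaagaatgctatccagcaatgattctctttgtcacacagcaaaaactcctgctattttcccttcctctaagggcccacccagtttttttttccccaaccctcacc
Gzmb: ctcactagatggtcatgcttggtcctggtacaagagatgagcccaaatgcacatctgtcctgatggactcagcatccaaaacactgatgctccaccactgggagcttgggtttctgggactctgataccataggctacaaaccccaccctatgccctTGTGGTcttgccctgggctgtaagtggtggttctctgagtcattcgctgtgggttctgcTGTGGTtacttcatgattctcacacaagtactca
On either strand, 4 motifs were searched: the T-box element AGGTGTGA, its core GGTGTG, the E-box CAGGTG bound by ZEB factors and the RUNX core TGTGGT, of which the core GGTGTG lies within the longer T-box element. None of the 4 stood in the windows of Cma1, S1pr5 or Serpinb9b. Gzmb held TGTGGT 2 times, starting 93 and 34 bases before the transcription start. Over 16 windows of 12 genes described below, 0 held AGGTGTGA, 3 GGTGTG, 2 CAGGTG and 6 TGTGGT. Windows of 1 gene can overlap, so sites repeat in these counts: all 3 GGTGTG windows are of Zeb2, 2 of them with the same site, and both Ly6c2 windows hold the same TGTGGT site. Among all 32851 windows of this length the shares were 1.12%, 16.3%, 17.2% and 14%. These are matches of letters in a short window and say nothing of binding.

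Zfp683 (GRCm38, chromosome 4, 134053838 to 134058996, plus strand) was at the limit of detection in NK cells of both genotypes. Mature cells held 0 UMIs in WT_LP and 1 in KO_LP, and lower-sum cells 2 and 1. A 3′ tag outside the deleted part would not show the deletion, so these counts do not check the genotype labels.

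The libraries held 29622652 UMIs in WT_LP and 23098308 in KO_LP. Mature cells had a median of 5218 and 6109 UMIs, with ranges of 1778 to 16968 and 1229 to 22478. Lower-sum cells were deeper, with medians of 6575 and 7094.5 UMIs. Levels are given as UMIs per 1000000 UMIs of the summed cells of a class (CPM). Because the mature class summed to 257404 UMIs in WT_LP and 385659 in KO_LP, 1 UMI there was worth 3.88 and 2.59 CPM. The 2 libraries shared 5 cell barcodes, none of them in a mature cell. No doublet caller was run.

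The 3 choosing genes marked overlapping but different sets of cells. In WT_LP, Serpinb9b had a UMI in 30 of the 44 mature cells, Cma1 in 27 and S1pr5 in 22. In KO_LP the order differed, with Cma1 in 34 of 53, Serpinb9b in 24 and S1pr5 in 19. Cells with UMIs of all 3 numbered 6 in WT_LP and 3 in KO_LP. Cells with Cma1 alone numbered 5 and 16, those with Serpinb9b alone 8 and 10, and those with S1pr5 alone 2 and 6. The maturity sum had a median of 4 in WT_LP and 3 in KO_LP, with a highest value of 13 and 15. Just inside the threshold, with a sum of 2, were 14 and 19 cells, and just outside it, with a sum of 1, were 28 and 39.

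The UMIs of the choosing genes outside the mature cells are given as a description, since the rule leaves lower-sum cells at most 1 of them. Mature cells were 0.859% and 1.53% of the kept cells and held 75 of 101 Cma1 UMIs in WT_LP and 96 of 121 in KO_LP. They held 88 of 114 and 107 of 136 UMIs of Serpinb9b. For S1pr5 they held 34 of 56 and 30 of 64 UMIs. In KO_LP, S1pr5 had a UMI in 19 mature cells, 22 lower-sum cells, 1 T cell and 8 cells outside the NK, T and plasma cell classes. Cma1 had a UMI in 0.615% and 0.419% of T cells (median depth 5278 and 5918.5 UMIs). In plasma cells, which should lack it and are deep (medians of 23855 and 23045 UMIs), Cma1 was found in 0 of 97 and 0 of 109 cells, which allows a share of cells with a Cma1 UMI of up to 3.09% and 2.75% (3 cells of the total), or 3.73% and 3.33% by the exact interval. These limits say nothing of cells that express Cma1 below detection. The rule left out 3 and 2 cells that met both UMI sums but had 2 or more CD3 UMIs, and 5 and 3 cells that reached the maturity sum without the NK sum.

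The label was checked against Itgam and Zeb2, the marker genes that the rule did not use. Itgam, which encodes the CD11b integrin chain, had a UMI in 23 of 44 mature cells in WT_LP and 34 of 53 in KO_LP, or 52.3% and 64.2%, against 18.8% and 29.2% of lower-sum cells. Zeb2 was found in 72.7% and 71.7% of mature cells against 35.3% and 38.7% of lower-sum cells. Plasma cells gave 3.09% and 3.67% for Itgam and 4.12% and 4.59% for Zeb2, so the mature cells were above the level of free RNA. After each cell was thinned to 3000 UMIs, which left out 3 and 4 mature and 36 and 20 lower-sum cells, Itgam stood at 36.6% and 49.0% of mature cells against 10.9% and 17.0% of lower-sum cells. Thinned Zeb2 shares were 65.9% and 63.3% against 17.9% and 23.5%. Both genes were thus found in a larger share of mature than of lower-sum cells in each library, with and without thinning.

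Cma1 is a mast cell gene by name, and the other mast cell genes were absent. Of 13 mast cell markers, 12 were at 0 UMIs in the mature cells of each library, including Cpa3, Tpsb2, Fcer1a and Mcpt4. The exception was Kit, with 4 cells in each library. Lower-sum cells had 10 of the 13 at 0 in each library, so most of this absence was not particular to mature cells. Cma1 (chromosome 14, 55941451 to 55944675, minus strand, GRCm38) lies 314163 bases from Gzmb (56258838 to 56262260, minus strand), and the stretch that both bound holds 15 protein-coding protease genes. Mature cells of both libraries had UMIs of only 3 of them, Cma1, Gzmb and Gzmc, and the other 12, among them Cma2, Mcpt1, Mcpt8, Ctsg and Gzmd, were at 0. Gzmb had 690 and 798 UMIs in 40 of 44 and 46 of 53 mature cells. Gzmc, a granzyme neighbouring Gzmb, had 8 and 9 UMIs in 2 and 3 mature cells, and stood at 31.1 and 23.3 CPM against 81.7 and 79.0 CPM in lower-sum cells.

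**Figure D1:**
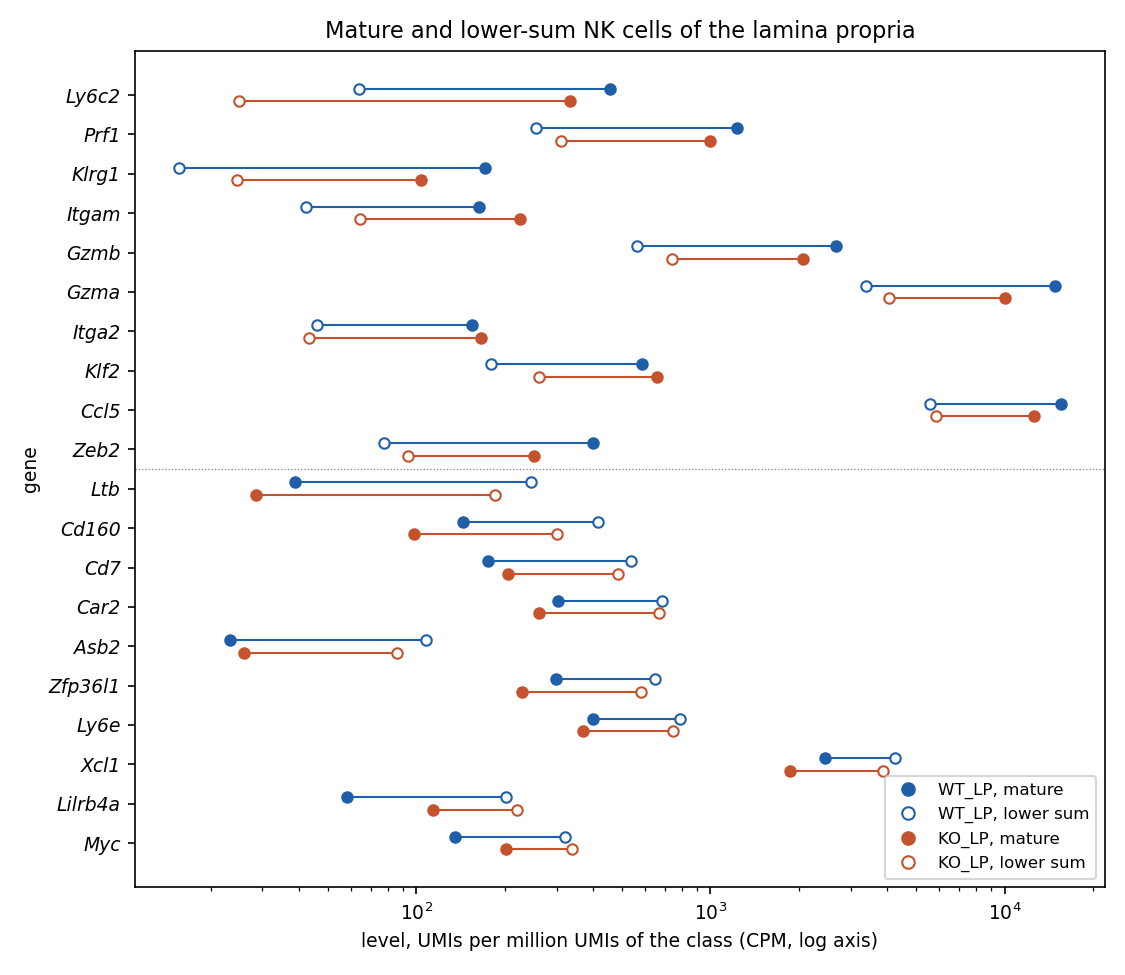
Levels of 20 genes as UMIs per 1000000 (CPM, log axis) in mature cells (filled) and lower-sum cells (open) of WT_LP (blue) and KO_LP (red), the 10 genes above the dotted line higher and the 10 below it lower in mature cells. The genes were chosen so that the gap points the same way in both libraries. In WT_LP, Ly6c2 at the top goes from 63.8 to 455 CPM and Myc at the bottom from 321 to 136 CPM.

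Against lower-sum cells, mature cells were high in RNAs of killing, trafficking and late maturation. The libraries are set side by side here, as both comparisons rest on cells that the counts themselves divided. Of 2358 genes measured in both libraries (30 UMIs or more over both classes and a mean of 50 CPM or more), 88 were at least 1.5-fold higher in mature cells of each library, 3.73%, and 42 were at least 1.5-fold lower, 1.78%. Another 8 genes, 0.339%, passed 1.5-fold in opposite directions. With scaling by trimmed mean of M-values (TMM) the first 2 counts became 70 and 56, and with median-of-ratios scaling 72 and 56. Singly, WT_LP had 12.8% of its 2557 measured genes higher and 7.74% lower, and KO_LP 9.89% and 3.63% of 2620. The counts of list genes past the fold in both libraries, given below, are to be read beside the 3.73% and 1.78%. The lists were written with earlier results of these data known, so these counts are a description.

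The cytotoxic granule genes were led by the killing proteins. Prf1, which encodes the pore-forming protein perforin, stood at 1228 CPM in mature and 256 CPM in lower-sum cells of WT_LP, and at 998 and 310 CPM in KO_LP. The log2 ratios were 2.26 (2.07 to 2.46) and 1.69 (1.5 to 1.87). Gzmb, the aspartate-cutting granzyme that starts apoptosis, stood at 2681 against 565 CPM and 2069 against 742 CPM. Gzma, a tryptase granzyme, stood at 14887 against 3391 CPM in WT_LP and 10024 against 4051 CPM in KO_LP. All 3 were higher in mature cells of both libraries, by more in WT_LP. Of 24 granule genes, 15 were measured, of which 5 were at least 1.5-fold higher and 1, Gzmc, was lower in both libraries. The other 2 higher genes were Ctsd, a lysosomal protease, and Sytl2, a Rab27 effector of granule transport. The median log2 ratio of the measured genes was 0.64 and 0.20, against 0.08 and 0.11 over all measured genes. Nkg7, a granule membrane protein, had log2 ratios of 0.64 and 0.16, the latter -0.021 among cells of low heat-shock share.

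Late maturation genes held high ratios. Of 23 listed genes 14 were measured in both libraries, 10 of them at least 1.5-fold higher and 1 lower. Ly6c2, which encodes the surface protein Ly6C, stood at 455 CPM in mature and 63.8 CPM in lower-sum cells of WT_LP, and at 334 and 25.0 CPM in KO_LP. Its log2 ratios were 2.83 and 3.74. Klrg1, an inhibitory receptor for cadherins, stood at 171 against 15.7 CPM and 104 against 24.5 CPM. Zeb2 stood at 400 against 77.6 CPM and 252 against 93.7 CPM, and Itgam at 163 against 42.1 CPM and 226 against 64.3 CPM. Irf8, a transcription factor of NK and myeloid cells, had log2 ratios of 1.46 and 0.92, and Lgals1, the lectin galectin-1, of 1.99 and 1.05. Spn (CD43) had 1.44 and 0.80. The member past 1.5-fold lower in both libraries was Cd160, a receptor for HVEM, at 144 against 415 CPM and 98.5 against 302 CPM.

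Cx3cr1, the fractalkine receptor of patrolling NK cells and monocytes, had few UMIs in lower-sum cells. It had 34 UMIs in 12 of 44 mature cells of WT_LP and 0 UMIs in 377 lower-sum cells, a level at least 118-fold higher when the lower-sum class is set at the 3 UMIs that a count of 0 allows and the 34 UMIs are taken as they stand. With counting error on both sides, the interval of the log2 ratio began at 6.51. In KO_LP it had 12 UMIs in 8 of 53 mature cells and 5 UMIs in 284 lower-sum cells, 31.1 and 2.23 CPM, a log2 ratio of 3.80 (2.19 to 5.66). Plasma cells had a Cx3cr1 UMI in 3.09% of WT_LP and 0.917% of KO_LP cells.

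Genes of trafficking were next. Of 16 genes of egress and recirculation, 10 were measured in both libraries, of which 6 were at least 1.5-fold higher and none lower. Klf2, the transcription factor that drives sphingosine-1-phosphate receptor expression in T cells, stood at 587 against 179 CPM in WT_LP and 659 against 261 CPM in KO_LP. Itgb2, the common chain of the CD11 integrins, had log2 ratios of 1.18 and 1.12, and Itga4, a chain of the gut and vascular homing integrins, 0.90 and 0.70. Itgal (the LFA-1 chain) had 0.62 and 0.60. Itga2, which encodes the NK marker CD49b, stood at 155 against 45.9 CPM and 166 against 43.3 CPM. Of 16 genes listed under retention only 5 were measured, and 1, Xcl1, was past 1.5-fold lower in both libraries. Xcl1 encodes a chemokine and is counted again below among the early stage and the chemokine genes. No other measured gene of the retention list passed in both libraries. Cd69, which holds lymphocytes in tissue by opposing S1PR1, had log2 ratios of -0.76 and -0.44, and Rgs1 of -0.81 and -0.29, the latter 0.00601 with Serpinb9b left out of the sum.

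Several genes of earlier NK stages and of innate lymphoid precursors were lower. Of 25 listed genes 16 were measured in both libraries, 7 of them at least 1.5-fold lower and 1 higher. Ltb, the lymphotoxin beta chain, stood at 38.8 CPM in mature and 246 CPM in lower-sum cells of WT_LP, and at 28.5 and 186 CPM in KO_LP, log2 ratios of -2.66 and -2.70. Xcl1, which attracts XCR1-bearing dendritic cells, stood at 2459 against 4239 CPM and 1867 against 3848 CPM. Cd7, an immunoglobulin-family receptor of lymphocytes, stood at 175 against 535 CPM and 205 against 486 CPM, and Ly6e at 400 against 788 CPM and 368 against 746 CPM. Tcf7, which encodes the factor TCF-1 of early stages, had log2 ratios of -1.27 and -0.84. Emb, an immunoglobulin-family adhesion protein, was lower to a different degree, -2.90 in WT_LP and -0.73 in KO_LP.

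The remaining genes with the lowest ratios were Car2, carbonic anhydrase 2, at 303 against 686 CPM in WT_LP and 262 against 668 CPM in KO_LP; Asb2, a ubiquitin ligase subunit, at 23.3 against 108 CPM and 25.9 against 86.1 CPM; and Zfp36l1, a protein of mRNA decay, at 299 against 651 CPM and 228 against 579 CPM. Lilrb4a, an inhibitory receptor, had log2 ratios of -1.79 and -0.95, and Myc, the growth factor-induced transcription factor, of -1.24 and -0.75. These genes were chosen for being lower in both libraries with intervals below 0, so that agreement is not a result.

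Chemokines split by gene. Ccl5, a chemokine that attracts T cells and monocytes, stood at 15520 CPM in mature and 5586 CPM in lower-sum cells of WT_LP and 12612 and 5839 CPM in KO_LP, and had a UMI in every mature cell. Ccl3 had log2 ratios of 1.72 and 0.97, and Ccl4 of 1.04 and 0.71. Ifng, the cytokine interferon gamma, stood at 684 against 557 CPM and 876 against 578 CPM, and its WT_LP ratio was -0.76 with Serpinb9b left out of the sum. Of 6 cytokine and chemokine genes measured in both libraries, 3 were past the fold higher (Ccl3, Ccl4 and Ccl5) and 2 lower (Xcl1 and Ltb). Among 9 cytokine receptors, Il18rap (log2 ratios 1.66 and 0.85) and Il12rb2 (1.05 and 0.97), chains of the receptors for the NK-activating cytokines IL-18 and IL-12, were higher, and Il21r (-1.66 and -0.92) was lower.

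Of 15 measured NK identity genes outside the rule, 4 were at least 1.5-fold higher in both libraries (Prf1, Gzma, Itga2 and Klrb1c) and none lower. Of 15 measured receptors of the NKG2, NKR-P1 and related groups, 1 was higher (Klrb1c) and 2 were lower (Lilrb4a and its paralogue Lilr4b, which may share reads). Of 5 measured Ly49 genes outside the rule, none passed 1.5-fold in both libraries, and near-identical Ly49 genes may share reads, so their levels are uncertain. Klrb1c, which encodes NK1.1, was higher, at 723 against 436 CPM and 705 against 465 CPM. Ncr1, which encodes NKp46 and whose promoter drives the Cre, had log2 ratios of 0.40 and 0.25. Klrd1 (CD94) had 0.06 and -0.02 and Klrk1 (NKG2D) 0.07 and 0.35. Among 18 transcription factors measured in both libraries, Zeb2, Irf8 and Klf2 were past 1.5-fold higher and Tcf7 and Ikzf2 lower. Tbx21, which encodes T-bet, had log2 ratios of 1.11 and 0.58, the latter -0.23 with Cma1 left out of the sum. Runx1 had 1.01 and 0.58. Serpinb9, the paralogue of the choosing gene Serpinb9b, had 0.88 and 0.43, and reads shared by the pair could not be told apart.

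Stress, activation and contaminating RNA were read beside these ratios. Of 16 immediate early genes and 11 heat-shock genes, none passed 1.5-fold in both libraries. Few of all measured genes did, 3.73% higher and 1.78% lower. In WT_LP alone, 3 heat-shock genes were past the fold lower, and 2 immediate early genes were lower and 1 higher. Of all measured genes in WT_LP, 12.8% were higher and 7.74% lower. In KO_LP alone, 1 heat-shock gene was past the fold lower and no immediate early gene passed, beside 9.89% higher and 3.63% lower of all measured genes. Summed heat-shock levels were 6243 CPM in mature and 7081 CPM in lower-sum cells of WT_LP and 7916 and 8307 CPM in KO_LP. Cell-cycle genes summed to 2840 against 1894 CPM and 4408 against 2705 CPM, and H2afz, a histone variant, had log2 ratios of 1.11 and 0.85. T cell markers, with Cd8a and Cd4 among 7 of 14 at 0, summed to 913 against 1005 CPM and 656 against 880 CPM. This list includes Cd3e and Cd3d, which the rule kept low in both classes, and Cd3e is among those at 0. ILC3 markers summed to 11.7 and 33.7 CPM in mature cells against 149 and 59.4 CPM in lower-sum cells, with 9 and 10 of 12 at 0, Il22 and Il23r included. ILC1 markers summed to 101 and 187 CPM against 564 and 345 CPM. Lower-sum cells thus held more RNA of both other innate lymphoid types, with Itga1, an ILC1 gene, at 63.0 and 45.1 CPM against 3.88 and 10.4 CPM. Its part in the lower levels of Ltb, Xcl1 and Cd7 in mature cells was not tested. Plasma and B cell markers, which include the Jchain that the rule limited, summed to 870 against 867 CPM and 539 against 449 CPM. Myeloid markers summed to 272 against 488 CPM and 233 against 391 CPM, and 11 of 12 epithelial and stromal markers were at 0 in mature cells.

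**Figure D2:**
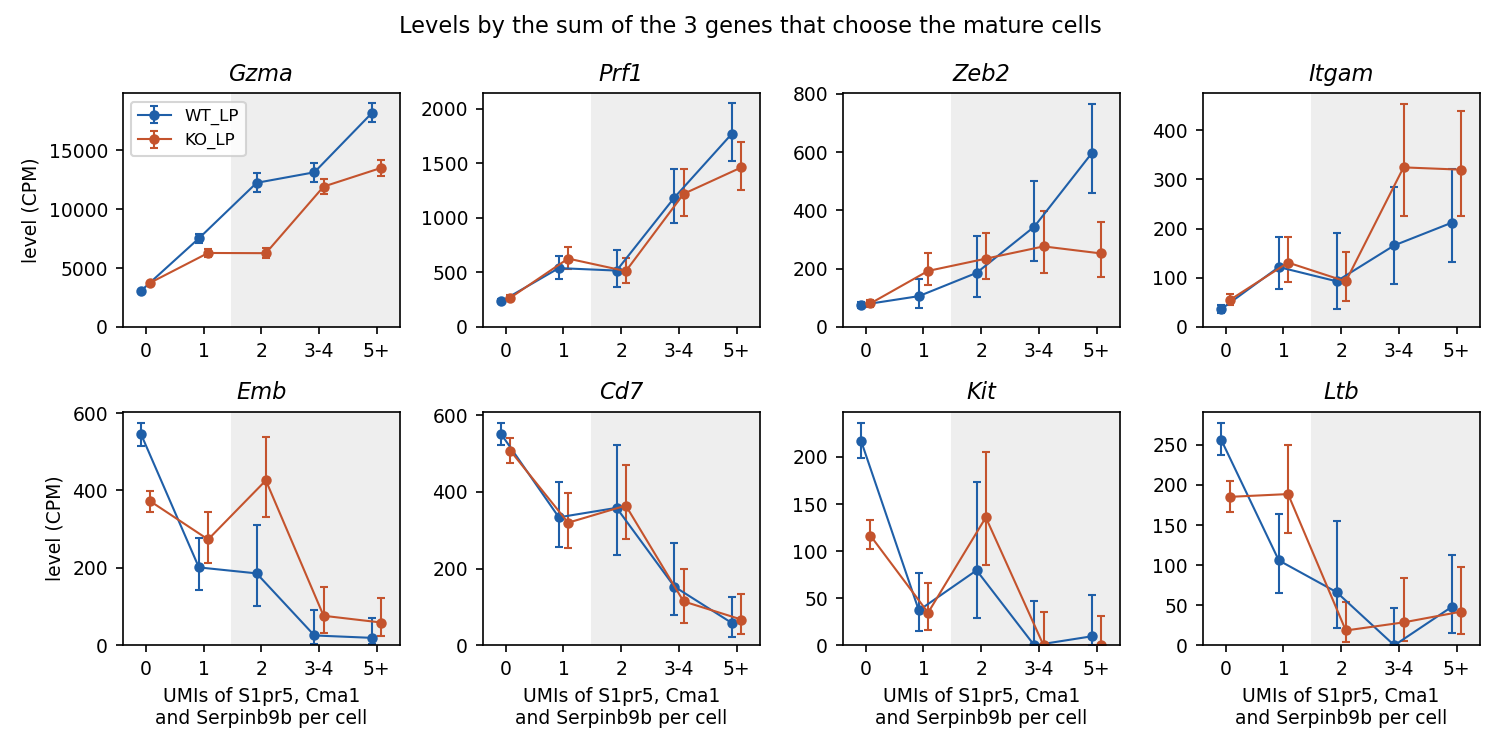
Levels (CPM, linear axes from 0) of 8 genes in NK cells grouped by the maturity sum of 0, 1, 2, 3 to 4, and 5 or more in WT_LP (blue) and KO_LP (red), with 95% Poisson bars and the mature classes shaded. Gzma goes from 3078 CPM at a sum of 0 to 18160 CPM at 5 or more in WT_LP and from 3760 to 13495 CPM in KO_LP, while Cd7 goes from 551 to 57.9 CPM and from 507 to 67.3 CPM.

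Levels were also read by class of the maturity sum within the NK cells. From a sum of 0 through 1, 2, 3 or 4, and 5 or more, Gzma stood at 3078, 7516, 12224, 13118 and 18160 CPM in WT_LP. In KO_LP the same classes gave 3760, 6277, 6260, 11907 and 13495 CPM. Cells with a sum of 1, just outside the rule, were thus between the extremes for Gzma. Zeb2 went from 75.4 CPM at a sum of 0 to 598 CPM at 5 or more in WT_LP, but from 80.8 to 252 CPM in KO_LP, where the class with a sum of 3 or 4 was the highest at 277 CPM. Other genes did not go step by step. Xcl1 stood at 4230, 4364, 2535, 2718 and 2208 CPM in WT_LP, and Itgam at 122 CPM at a sum of 1 but 92.9 CPM at a sum of 2. Cells with a sum of 2 had other values: in the 19 of KO_LP, Emb was at 426 CPM, Kit at 136 CPM and Itgam at 92.6 CPM; at sums of 3 or more Kit was at 0. Of the 84 Emb UMIs of mature KO_LP cells 47 came from 1 cell, and the highest Kit count in 1 cell was 12. A deep cell reaches 2 UMIs more easily, and the part of depth in this was not tested.

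Cells marked by S1pr5 and cells marked by Cma1 differed in opposite directions in the libraries. In WT_LP, 9 cells with 2 or more S1pr5 UMIs were set beside 10 cells with 2 or more Cma1 UMIs and none of S1pr5. The S1pr5 cells had Zeb2 at 785 against 238 CPM, Klrg1 at 392 against 119 CPM, Ly6c2 at 1054 against 238 CPM and Cx3cr1 at 368 against 0 CPM. In KO_LP, 8 such S1pr5 cells and 22 such Cma1 cells gave Zeb2 at 197 against 278 CPM, Klrg1 at 73.9 against 160 CPM, Ly6c2 at 123 against 615 CPM and Cx3cr1 at 0 against 42.1 CPM. Gzmb followed the same pattern, at 2305 against 1490 CPM in WT_LP and 751 against 2696 CPM in KO_LP. Xcl1 was lower in the S1pr5 cells of both libraries, at 1005 against 2592 CPM and 899 against 1525 CPM. The S1pr5 cells of WT_LP also carried Cma1 at 490 CPM, those of KO_LP at 24.6 CPM. The KO_LP cells held Emb at 641 CPM and Kit at 209 CPM, and they include few cells, so single cells can set these values.

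Cells that qualified through Serpinb9b alone were another mixture. The 10 in KO_LP were deep, with a median of 12307 UMIs, and had Xcl1 at 3732 CPM, Ly6c2 at 56.8 CPM and Itgam at 37.9 CPM. The 8 in WT_LP had a median of 4870 UMIs, Xcl1 at 3817 CPM, Ly6c2 at 176 CPM and Itgam at 100 CPM. In both libraries Xcl1 in these cells was above the level of the whole mature class, 1867 and 2459 CPM, while Gzmb, at 2719 and 2561 CPM, stood beside 2069 and 2681 CPM for the class.

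**Figure D3:**
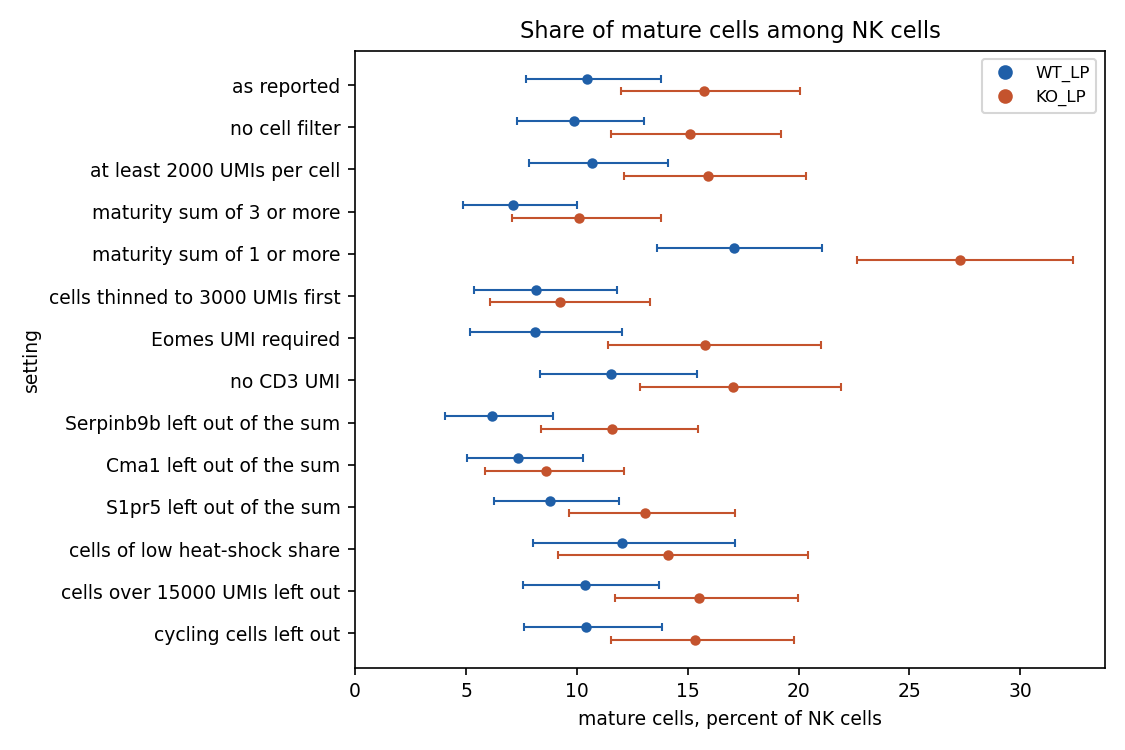
Mature cells as a percent of NK cells in WT_LP (blue) and KO_LP (red) with 95% exact Clopper-Pearson intervals, as reported and under 13 other settings of the rule. The KO_LP point lies to the right of the WT_LP point in every setting, all drawn from the same 2 libraries. The intervals of the libraries overlap already as reported (7.70% to 13.8% and 12.0% to 20.1%). The gap is 1.08 percentage points when cells are first thinned to 3000 UMIs and 1.24 with Cma1 left out of the sum.

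Mature cells took a larger share of NK cells in KO_LP than in WT_LP. They were 10.5% of NK cells in WT_LP (exact Clopper-Pearson interval 7.70% to 13.8%) and 15.7% in KO_LP (12.0% to 20.1%). The difference was 5.28 percentage points (approximate interval 0.287 to 10.4). NK cells in turn were 8.22% and 9.75% of the kept cells. After thinning of every cell to 3000 UMIs before the rule was applied, the shares were 8.14% (25 of 307) and 9.23% (25 of 271). That difference of 1.08 points (-3.74 to 6.04) was not detectable at this depth. Shares of cells in 1 library per genotype also carry animal and preparation differences, which cannot be told apart from genotype.

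**Figure D4:**
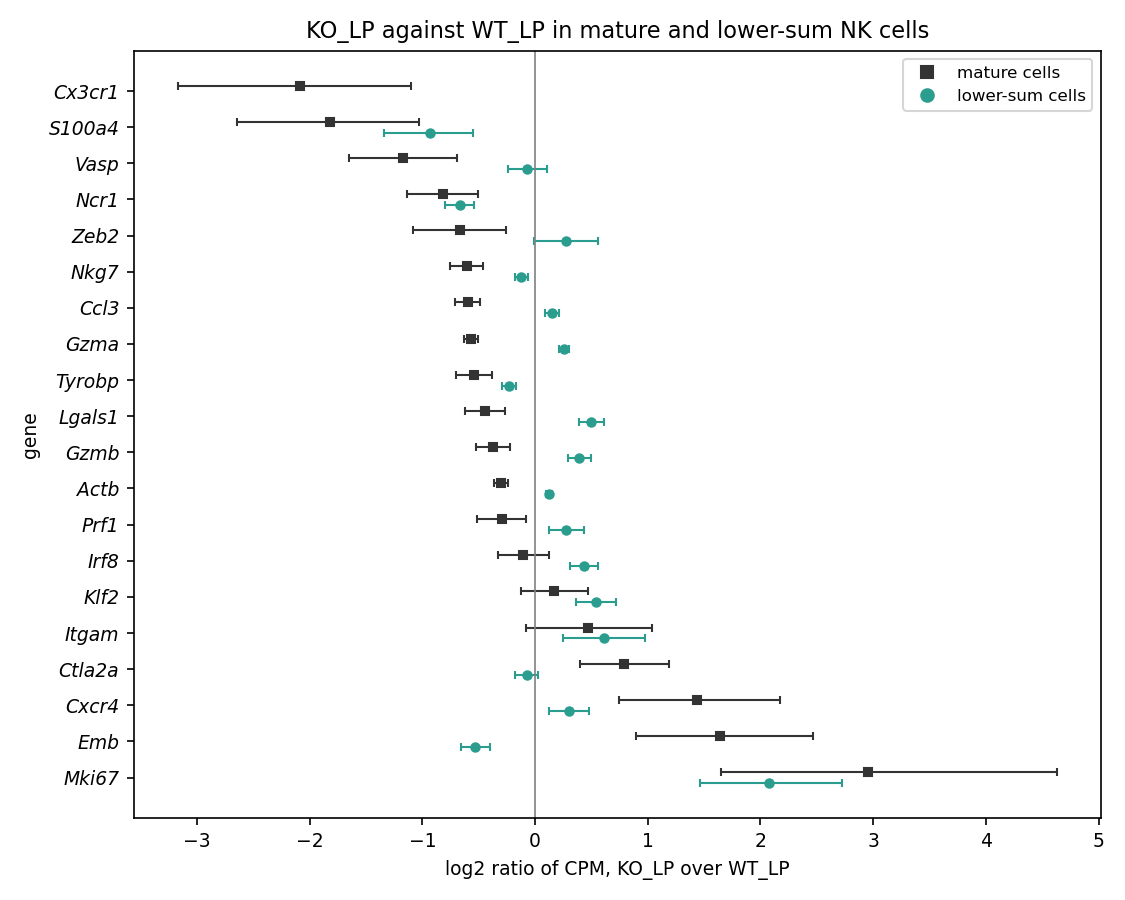
Log2 ratios of CPM, KO_LP over WT_LP, for 20 genes in mature cells (dark squares) and lower-sum cells (green circles), with 95% exact conditional binomial intervals for counting error and a line at 0 for no difference. Gzma, Gzmb, Prf1, Ccl3 and Lgals1 lie below 0 in mature cells and above 0 in lower-sum cells, and Emb lies the other way.

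Between genotypes, mature cells of KO_LP had lower levels of Gzma, Gzmb, Prf1, Ccl3, Lgals1 and Zeb2 than those of WT_LP. In lower-sum cells these 6 genes had ratios above 0. The lower-sum classes of the libraries also differed in RNA of other cell types. From WT_LP to KO_LP, their ILC1 markers fell from 564 to 345 CPM and their ILC3 markers from 149 to 59.4 CPM. Kit was found in 49.9% of WT_LP and 34.3% of KO_LP NK cells with a sum of 0. The part of these differences in the lower-sum ratios was not tested. Gzma had 14887 CPM in the mature cells of WT_LP and 10024 CPM in those of KO_LP, a log2 ratio of -0.57 (-0.64 to -0.51). In lower-sum cells it had 3391 and 4051 CPM, a ratio of 0.26. The difference of the 2 log2 ratios was -0.83 (approximate interval -0.90 to -0.75). Gzmb had -0.37 in mature and 0.39 in lower-sum cells, Prf1 -0.30 and 0.28, Ccl3 -0.60 and 0.15, and Lgals1 -0.45 and 0.50. Zeb2 stood at 400 against 252 CPM, a ratio of -0.67 (-1.09 to -0.26), beside 0.27 (-0.01 to 0.56) in lower-sum cells. Of 17 measured late maturation genes, 5 were at least 1.5-fold lower in KO_LP and none higher, and the median over these genes was -0.44. Not all had the opposite order in lower-sum cells: Ly6c2 had -0.44 (-0.81 to -0.07) in mature and -1.35 (-1.81 to -0.91) in lower-sum cells, and Cd160 had -0.54 and -0.46. Of 15 measured granule genes only 1, Nkg7, was past 1.5-fold lower and none higher, with a median of -0.30. Of 6 measured cytokine and chemokine genes 1 was lower (Ccl3) and 1 higher (Cxcl10). Across 2651 measured genes in mature cells, 11.9% were past the fold higher and 8.11% lower, with a median of 0.02, so such counts are common at this depth. TMM scaling turned the 315 higher and 215 lower genes into 253 and 284, and median-of-ratios scaling into 256 and 282. In the more deeply covered lower-sum cells, 0.6% and 0.88% of 2499 genes passed.

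These genotype ratios moved with how the cells were chosen. The ratio of Gzma lay between -0.74 (Cma1 left out of the sum) and -0.17 (cells thinned to 3000 UMIs first). Prf1 turned to 0.13 after thinning and Gzmb to 0.038 when cells with any CD3 UMI were left out. Cx3cr1 stood at 132 CPM (12 of 44 cells) against 31.1 CPM (8 of 53 cells), a log2 ratio of -2.09 (-3.17 to -1.10). S100a4, a calcium-binding protein of motile cells, had -1.82 in mature and -0.94 in lower-sum cells. Vasp, an actin regulator, stood at 361 against 161 CPM, with a lower-sum ratio of -0.07. Ncr1 was lower in KO_LP in both classes, at 723 against 410 CPM and 547 against 344 CPM, ratios of -0.82 and -0.67. Its partners Tyrobp (DAP12) and Fcer1g had -0.54 and -0.53 in mature cells and -0.23 and -0.18 in lower-sum cells.

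Other genes with lower levels in KO_LP mature cells rested on fewer UMIs. Gskip, a regulator of the kinase GSK3, had 29 UMIs in 15 WT_LP cells and 5 in 4 KO_LP cells. Pim3, a survival kinase, had 48 and 21 UMIs, Ergic3 25 and 11, Mpc2, a mitochondrial pyruvate carrier subunit, 34 and 20, and the anti-apoptotic Bcl2a1b 55 and 36. Spp1, the secreted protein osteopontin, had the lowest ratio, -3.49, but its 30 WT_LP UMIs came from 2 cells, 26 of them from 1.

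Genes higher in KO_LP mature cells were led by those of dividing cells, from few cells. Mki67, a marker of cycling cells, had 5 UMIs in 1 WT_LP cell and 58 UMIs in 6 KO_LP cells. The histone genes Hist1h2ae, Hist1h1b and Hist1h2ap had 3, 12 and 15 UMIs in WT_LP and 76, 77 and 92 in KO_LP, of which 41, 53 and 42 came from 1 cell. Stmn1, a microtubule regulator, had 18 UMIs in 6 cells and 108 UMIs in 17 cells. Of 8 measured cell-cycle genes, 6 were at least 1.5-fold higher in KO_LP, beside 11.9% of all 2651 measured genes. The median over the 8 genes was 0.95. The summed level of the 18 listed genes was 2840 against 4408 CPM, and lower-sum cells differed the same way, at 1894 against 2705 CPM. Without cells holding 2 or more UMIs of Mki67, Top2a, Birc5 and Ccnb2, the histone ratios of Hist1h2ae and Hist1h2ap turned to -0.052 and -1.0, and Mki67 had no UMI left. With a maturity sum of 3 or more required, the ratio of Mki67 was -1.62 and that of Stmn1 -0.49.

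Emb had 69.9 CPM in mature cells of WT_LP and 218 CPM in those of KO_LP, a log2 ratio of 1.64 (0.89 to 2.46), and went the other way in lower-sum cells, at 521 and 361 CPM, a ratio of -0.53. As above, 47 of its 84 KO_LP UMIs came from 1 cell. Cxcl10, an interferon-induced chemokine, had 4 UMIs in 3 cells and 44 UMIs in 5 cells, 22 of them in 1. Rela, a subunit of NF-kappa B, had 4 UMIs in 3 WT_LP cells and 33 in 18 KO_LP cells, Cltc, the clathrin heavy chain, 8 in 8 and 48 in 26, and Sp4, a zinc finger factor, 5 in 4 and 35 in 18. These last 3 were spread over cells, with at most 9 UMIs in 1. Thy1 had a log2 ratio of 1.29 (0.52 to 2.13) and Cxcr4, the receptor for CXCL12, of 1.43 (0.75 to 2.18), and both were higher in KO_LP lower-sum cells too, by 0.25 and 0.30. Of 14 measured early stage genes, 5 were past 1.5-fold higher in KO_LP and none lower, beside 11.9% and 8.11% of all 2651 measured genes. Heat-shock genes summed to 6243 against 7916 CPM. All 11 measured had log2 ratios above 0, and 3 were past the fold higher, beside the same 11.9% of all measured genes. Their part in the genotype ratios was not tested beyond leaving out cells of high heat-shock share.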

How the data were processed

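Single cells of small intestinal lamina propria from 1 wild-type and 1 KO library were analysed. The authors deposited raw UMI counts for each gene in each barcode, and Cell Ranger 6.0.1 wrote these matrices, per the file headers. Per the submitters' processing notes, the tools were Cell Ranger and Seurat and the build mm10, without roles. Gene counts of the other 4 libraries (liver, salivary gland) were not used here. Of 32285 gene IDs, 32158 are in GENCODE M21 on GRCm38, which gave coordinates. Listed genes Klra13-ps and Mx1 were not measured. A listed gene that was measured is counted with its lists but not reported by name here.

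A barcode was kept from 500 genes and 1000 UMIs upwards, if no more than 10% of its UMIs were mitochondrial. The members and gene lists were chosen with earlier results of these data known. UMIs were summed per library and class and expressed as CPM. Log2 ratios carry 95% exact conditional binomial intervals, CPM exact Poisson intervals and shares exact Clopper-Pearson intervals. Intervals of a difference between shares or between log2 ratios are approximate. They combine the distances to the bounds of both sides by the square root of summed squares. With 1 library per genotype no test was run. Genes entered a count with 30 UMIs or more over both sides and a mean of 50 CPM or more, and counted as higher or lower at 1.5-fold. The text names the choosing and marker genes, Zfp683, list members by the same rank, and in each comparison the 10 genes each way whose interval bound nearest 0 was farthest from 0 (for mature against lower-sum cells, in the library where it was nearer). Genes whose alternatives are given in the closing section were added after their values were seen.

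Ratios and intervals were tested on simulated Poisson sums, which follow the counting model of the intervals. These sums have no spread between cells, so the test cannot show how the intervals hold under such spread. Python 3.11.15, numpy 2.4.6, scipy 1.17.1, pandas 2.3.3 and R 4.3.3 were used, with edgeR 4.0.16 (TMM) and DESeq2 1.42.0 (median of ratios) for alternative scaling factors only. Alternatives changed the cell filter, the maturity sum, depth, NK and T cell gates, heat-shock share, scaling, the low-count filter and the summing.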

Additional observations from a re-analysis of the deposited data

Results flagged for a closer look

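In 11 flagged genes the ratio of KO_LP over WT_LP pointed one way in mature and the other way in lower-sum cells. Both intervals left out 0. In 2 flagged genes the ratio of mature over lower-sum cells did so between the libraries. Genes below the mean of 50 CPM in either of the paired comparisons are not in these counts, though some met the same criterion. Klrg1 did so for KO_LP over WT_LP (-0.72 in mature and 0.65 in lower-sum cells). For mature over lower-sum cells, so did Cxcl10 (-2.36 in WT_LP and 0.85 in KO_LP) and Rela (-1.51 and 0.63). With 1 library per genotype these differences were not tested. No share over all measured genes stands beside the 11 and the 2, so whether they are many is not shown. The intervals cover counting error only, not the spread between cells. Lower-sum cells of the libraries also differed in ILC1 and ILC3 marker RNA, and its part in these ratios was not tested. The log2 ratios in mature and lower-sum cells were -0.57 and 0.26 for Gzma, -0.37 and 0.39 for Gzmb, -0.30 and 0.28 for Prf1, -0.45 and 0.50 for Lgals1, -0.60 and 0.15 for Ccl3, -0.19 and 0.15 for Ccl4, -0.30 and 0.06 for Ccl5 and -0.30 and 0.12 for Actb. The opposite order was seen for Emb (1.64 and -0.53), Cxcl10 (2.88 and -0.33) and Rgs1 (0.26 and -0.27). In mature KO_LP cells, 1 cell held 47 of the 84 Emb UMIs, and 1 cell held 22 of the 44 Cxcl10 UMIs. The ratios of mature over lower-sum cells in WT_LP and KO_LP were -0.99 and 0.50 for Inpp5d, which encodes the phosphatase SHIP1, and 0.66 and -0.43 for Vasp.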

How the results depend on the processing

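The share of mature cells stayed higher in KO_LP than in WT_LP in every setting tried, by 1.08 to 10.2 percentage points. All settings use the same 2 libraries, so this is no replicate check of a genotype difference. Settings that left out cells over 15000 UMIs or cycling cells were chosen after seeing the data. No paired analysis was possible because each genotype has 1 library. Requiring a maturity sum of 3 or more gave shares of 7.13% and 10.1%, 68 genes lower in mature cells of both libraries and 207 genes higher in KO_LP mature cells. A sum of 1 or more gave 17.1% and 27.3%, 53 and 27 genes higher and lower in mature cells, and 164 and 122 higher and lower in KO_LP. Thinning gave 9.23% in KO_LP, and 226, 113, 72 and 69 genes in the same order. Leaving Serpinb9b out of the sum gave 6.18% and 11.6% and 164 genes higher in mature cells, and leaving Cma1 out gave 7.36% and 8.61%. Cells of low heat-shock share gave 179 genes higher in KO_LP. Without the low-count filter the 4 counts were 714, 2053, 3773 and 1952, and with means of per-cell shares 69 genes were lower in mature cells.

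A turn of direction was counted only for genes whose interval, as reported, left out 0. Changes of sign in the other genes were not counted, though those genes are in the totals. Among 58 genes under 18 settings, ratios of mature over lower-sum cells so turned in 3 of 1039 alternatives in WT_LP and 8 of 1040 in KO_LP. The ratio of KO_LP over WT_LP so turned in 24 of 725 for 43 genes under 17 settings. The cause was not tested. For KO_LP over WT_LP, a sum of 3 or more gave 0.11 for Ccl4, -1.07 for Hist1h1b, -0.30 for Hist1h2ae, -1.07 for Hist1h2ap, -1.62 for Mki67 and -0.49 for Stmn1, and a sum of 1 or more 0.025 for Ccl4. Thinning gave 0.52 for Ccl4, 0.12 for Ccl5, -1.0 for Hist1h2ap, 0.13 for Prf1 and 0.28 for S100a6. Leaving out cells with a CD3 UMI gave 0.038 for Gzmb, -1.31 for Hist1h1b, -0.53 for Hist1h2ae, -1.44 for Hist1h2ap and -0.85 for Mki67. Requiring Eomes gave 0.067 for Klrg1 and 0.71 for Ly6c2, leaving Cma1 out 0.058 for S100a6, leaving S1pr5 out 0.038 for Ly6c2, per-cell shares 0.056 for Ccl4, and leaving out cycling cells -0.052 for Hist1h2ae and -1.0 for Hist1h2ap. For mature over lower-sum cells, WT_LP gave -0.49 for Klra3 with Eomes required, and -0.31 for Klra3 and -0.76 for Ifng with Serpinb9b left out. KO_LP gave -0.023 (thinned), -0.23 (Cma1 left out) and -0.068 (low heat shock) for Tbx21, 0.00601 for Rgs1 with Serpinb9b left out, 0.013 for Thy1 with Cma1 left out, and -0.030 for Actb, -0.19 for Klra3 and -0.021 for Nkg7 among cells of low heat-shock share. Mki67 gave no value after thinning, without Cma1 in the sum, and without cells over 15000 UMIs or cycling cells, and Hist1h1b none after thinning.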
